A study of Mus musculus with 6 samples.

Results

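Expression of 10 genes of pyroptosis, an inflammatory form of cell death, was followed in mouse back skin with and without IL-33. The genes are the gasdermins Gsdma, Gsdma2, Gsdma3, Gsdmc and Gsdmd, the inflammasome sensor Nlrp3, the adaptor Pycard, and the caspases Casp1, Casp4 and Casp8. They were picked by symbol, and all 10 were found among the 35275 genes listed and had enough reads to be tested. The libraries, 3 IL-33 KO and 3 WT, hold RNA of the isolated epithelial region of C57BL/6 back skin. Both genotypes had been treated on the back with 0.25% DNFB (dinitrofluorobenzene, a contact allergen) in acetone and olive oil, 3 times a week for 22 days, and no untreated skin is part of the comparison. The labels give neither the age nor the sex of the mice and do not say how the IL-33 KO allele was made or whether each library is a single mouse. The p-values therefore set the genotype difference against the spread between these libraries, which may in part be technical.

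Gasdermins are pore-forming proteins that are kept inactive by their own C-terminal part. Inflammasome sensors such as NLRP3 assemble with the adaptor ASC, the product of Pycard, and activate caspase-1, which cuts gasdermin D and the precursors of IL-1β and IL-18. The mouse gene listed as Casp4 encodes the caspase that binds bacterial lipopolysaccharide inside the cell and also cuts gasdermin D. In skin, gasdermin A genes are expressed mainly by keratinocytes, and Nlrp3 and Casp1 are best known from macrophages and neutrophils. IL-33 belongs to the IL-1 family, as do IL-1β and IL-18, and is kept in the nuclei of epidermal cells.

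The total count per library was 20459574 to 24359612. Il33, the deleted gene, was at 0.885, 0.928 and 0.532 CPM (counts scaled to library size, with TMM factors) in IL-33 KO 1, 2 and 3, against 197, 135 and 111 CPM in WT 1, 2 and 3, so the libraries carry the Il33 level their labels name (adjusted p 0.000175 in edgeR's quasi-likelihood test). Other tissue differed between the libraries. The summed level of 17 hair follicle markers was 10900 to 22500 CPM in IL-33 KO and 2890 to 6170 CPM in WT. That of 9 skeletal muscle markers was 12.8 to 269 CPM and 8.87 to 9.87 CPM. The sum of 7 adipocyte markers was 746 to 1040 CPM in IL-33 KO, against 174, 787 and 528 CPM in WT 1, 2 and 3. For 10 sebaceous gland markers it was 1900 to 3330 CPM in IL-33 KO, against 1280, 1680 and 3630 CPM in WT 1, 2 and 3. Both of these sums were lowest in WT 1. The skin label was borne out by Krt5 and Krt14, the keratins of basal keratinocytes, with Krt14 at 12700 to 28800 CPM over the 6 libraries. In bulk tissue, fewer cells of a type and less RNA per cell cannot be told apart.

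The gasdermin A genes are neighbouring copies on chromosome 11 of mm10 (plus strand), Gsdma3 at 98626360 to 98638226, Gsdma2 at 98646759 to 98657964 and Gsdma at 98664351 to 98677708. Their first 60 coding bases, from GENCODE M21 transcripts on GRCm38 and each within a single exon, show how alike they are and why the division of reads between them is uncertain. Capitals mark the positions at which the copies are not all the same. Over this stretch Gsdma3 differs from Gsdma at 5 bases and Gsdma2 from Gsdma at 2.
Gsdma3 (chr11:98629352-98629411): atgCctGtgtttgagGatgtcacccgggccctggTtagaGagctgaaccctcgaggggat
Gsdma2 (chr11:98649054-98649113): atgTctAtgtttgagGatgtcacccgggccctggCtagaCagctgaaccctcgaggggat
Gsdma (chr11:98666061-98666120): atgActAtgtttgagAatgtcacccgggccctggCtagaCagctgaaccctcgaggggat
Over the aligned coding sequence Gsdma2 shares 91.4% and Gsdma3 89.8% of bases with Gsdma. Of all windows of 50 bases in the Gsdma2 transcript 9.54% occur unchanged in Gsdma, and of those in Gsdma3 5.33% do. The read length and the handling of reads that match more than 1 copy are not given in the sources used here. Gsdmc has a similar set of copies on chromosome 15, and its coding sequence shares 87.0% of bases with Gsdmc2, 87.2% with Gsdmc3 and 88.1% with Gsdmc4. In the coordinates of the deposited table (mm10), Gsdmc lies on chromosome 15 at 63775968 to 63808759 (minus strand) and Gsdmd at 75862339 to 75867404 (plus strand). Nlrp3 lies on chromosome 11 at 59541568 to 59566956, Casp1 and Casp4 side by side on chromosome 9 at 5298517 to 5307265 and 5308828 to 5336783, and Casp8 on chromosome 1 at 58795374 to 58847503, each on the plus strand. Pycard lies on the minus strand of chromosome 7 at 127992103 to 127993867. None of the 10 genes overlaps another listed gene on either strand.

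Promoters are shown for 3 members whose levels differed in pattern, the neighbours Casp1 and Casp4 on chromosome 9 and the sensor Nlrp3. Of the 10 genes, 6 have a promoter window in the RefSeq table (GRCm38.p6), which runs from 250 bases before to 50 bases after a start site. For a gene with more than 1 window, the window nearest to the listed start was used. Capitals mark matches to the NF-kB consensus, the binding motif of the transcription factor that induces many inflammatory genes.
Casp1 (chr9:5298267-5298566, plus strand): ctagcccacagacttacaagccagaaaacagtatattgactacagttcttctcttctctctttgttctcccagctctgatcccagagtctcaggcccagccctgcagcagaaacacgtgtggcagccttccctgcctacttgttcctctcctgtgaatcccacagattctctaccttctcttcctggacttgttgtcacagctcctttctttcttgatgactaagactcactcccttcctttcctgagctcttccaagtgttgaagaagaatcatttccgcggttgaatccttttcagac
Casp4 (chr9:5308599-5308898, plus strand): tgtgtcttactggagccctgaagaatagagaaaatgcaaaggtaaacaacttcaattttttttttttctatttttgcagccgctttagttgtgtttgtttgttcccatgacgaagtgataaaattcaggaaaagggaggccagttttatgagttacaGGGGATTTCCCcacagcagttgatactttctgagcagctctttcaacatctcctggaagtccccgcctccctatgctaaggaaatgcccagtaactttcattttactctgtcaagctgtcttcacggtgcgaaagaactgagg
Nlrp3 (chr11:59541319-59541618, plus strand): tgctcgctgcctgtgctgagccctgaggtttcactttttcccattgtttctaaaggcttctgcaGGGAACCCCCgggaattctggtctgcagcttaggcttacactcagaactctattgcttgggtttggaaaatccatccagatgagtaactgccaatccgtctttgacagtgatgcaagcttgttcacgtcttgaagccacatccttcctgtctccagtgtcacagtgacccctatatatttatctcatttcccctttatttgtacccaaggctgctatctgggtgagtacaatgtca
The capitals of Casp4 are 2 overlapping matches that begin 93 and 92 bases before the start site, and those of Nlrp3 are 1 match that begins 186 bases before it. The NF-kB consensus was found on either strand in 4.51% of 32851 promoter windows. In the same search the interferon-response motif TTCNNNGAA, found in 8.30% of windows, and the AP-1 motif TGANTCA, found in 7.81%, had no match in any of the 6 windows. Of the members whose windows are not printed, Gsdma3 also holds an NF-kB match, and Casp8 and Pycard hold none. The Casp8 window, however, belongs to a start site 7128 bases from the listed start of the gene, and the listed start was not searched. Gsdma3 was lowest in WT 1, where Casp4 and Nlrp3 were highest. A match is a sequence description only and no binding was measured.

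Per unit of gene length, the adaptor and the epidermal gasdermins led. Pycard averaged 120 FPKM (counts scaled to gene length and library size, as the authors deposited them) over the 6 libraries, Gsdma 82.2 FPKM and Gsdmc 58.9 FPKM. The ranges of these neighbours overlapped, with Pycard at 94.1 to 153 FPKM, Gsdma at 61.3 to 103 FPKM and Gsdmc at 41.9 to 82.9 FPKM. Casp1 came next at 19.0 to 32.7 FPKM, below all values of Gsdmc and above all values of Casp8, which was at 14.1 to 18.8 FPKM. Gsdmd, the main target of Casp1, was at 7.04 to 11.2 FPKM. Casp4 (4.97 to 12.3 FPKM), Nlrp3 (2.21 to 13.8 FPKM), Gsdma3 (1.57 to 4.36 FPKM) and Gsdma2 (0.760 to 2.53 FPKM) followed, each overlapping the gene before it. The sensor Nlrp3 thus had a mean FPKM near the middle of the tested genes, at or above 50% of them, whereas its adaptor Pycard was above 96.4%.

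**Figure D1:**
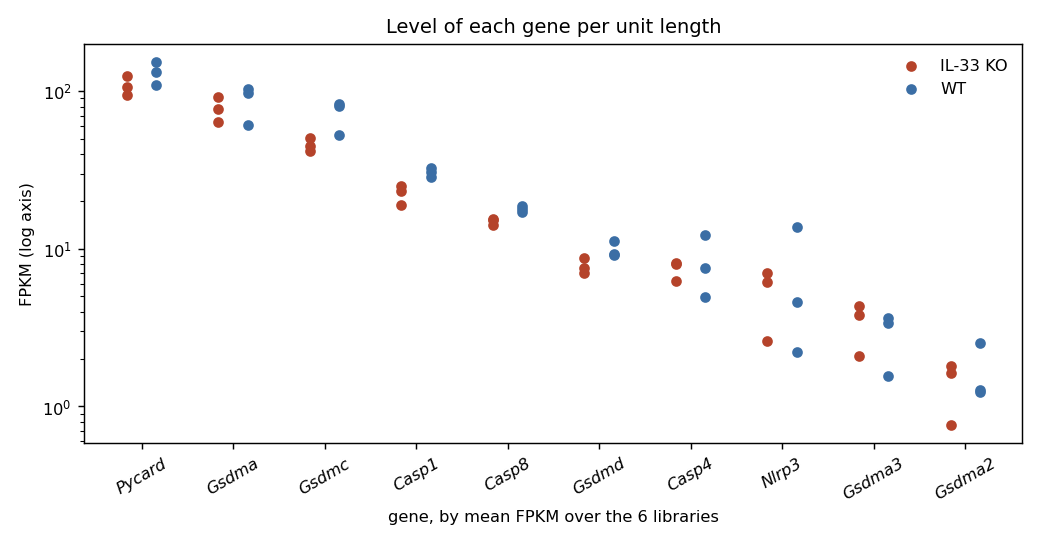
FPKM of each gene on a log axis, ordered by the mean over 6 libraries, with 1 point per library, IL-33 KO at the left and WT at the right of each position. Pycard, Gsdma and Gsdmc lie above 40 FPKM in every library, and Gsdma2 and Gsdma3 below 5 FPKM.

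Within the gasdermin A family Gsdma supplied nearly all transcripts. It made up 93.5% to 95.7% of the summed FPKM of Gsdma, Gsdma2 and Gsdma3 in IL-33 KO skin and 92.9% to 97.2% in WT skin. Gsdma3, the copy whose mutations cause hair loss in mice, made up 3.14% to 4.59% of it in IL-33 KO skin and 1.57% to 5.16% in WT skin. In the gasdermin C family Gsdmc made up 96.7% to 97.9% in IL-33 KO and 97.2% to 98.5% in WT, while Gsdmc3 and Gsdmc4 had at most 4 counts in any library. The ranges of these shares overlapped between the genotypes in all 3 cases.

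None of the 10 genes passed an adjusted p of 0.05 in the comparison of IL-33 KO with WT in edgeR, in which 0.0191% of the 15720 tested genes passed in either direction. None passed in DESeq2 (1.31% of tested genes) or limma-voom (0.0700%) either, and the smallest adjusted p in edgeR was 0.389. At an unadjusted p under 0.05 there were 4 members, Casp1, Gsdmc, Gsdmd and Casp8, each lower in IL-33 KO, where 4.15% of all tested genes were lower at that p. DESeq2 put the same 4 members under that p, where 4.05% of tested genes were lower. In all, 9 of the 10 members had a log2 fold change below 0, against 52.0% of tested genes, and the median log2 fold change was -0.36 for the members and -0.01 for all tested genes. With 10 genes, of which several share cells and regulation, these counts describe the list and do not test it.

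**Figure D2:**
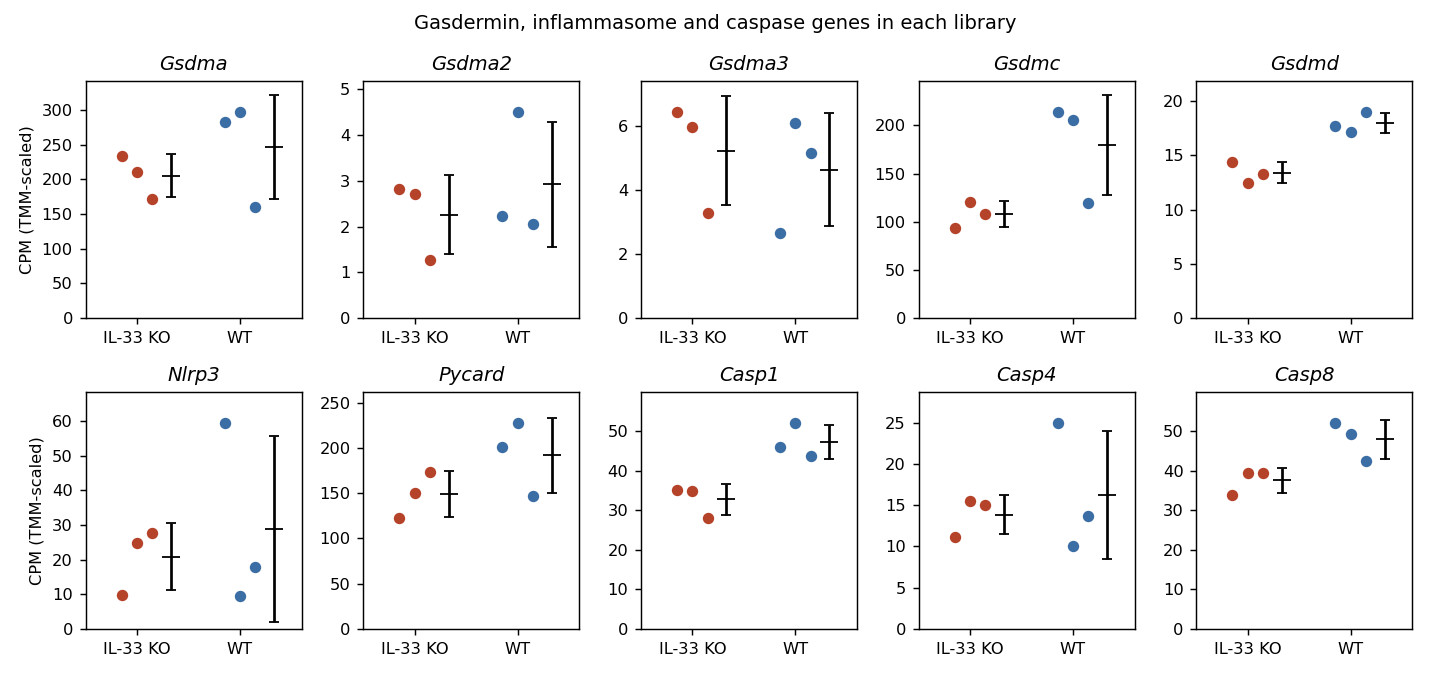
CPM of each gene by library, with IL-33 KO at the left and WT at the right of each panel, each point a library and the black mark the mean with SD (n = 3). All 3 IL-33 KO points lie below all 3 WT points for Gsdmd, Casp1 and Casp8, and the genotypes overlap for the other 7 genes.

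Casp1, the caspase that inflammasomes activate, had the smallest p of the members. It had 35.2, 34.8 and 28.1 CPM in IL-33 KO 1, 2 and 3, against 45.9, 52.1 and 43.8 CPM in WT 1, 2 and 3. All IL-33 KO libraries were below all WT libraries, a pattern in this direction that 6.47% of all tested genes had. The IL-33 KO mean was 32.7 ± 4.0 CPM and the WT mean 47.2 ± 4.31 CPM (SD, n = 3 each). In edgeR the log2 fold change was -0.53 ± 0.13 (SE; unadjusted p 0.00429, adjusted p 0.389). The 95% interval of the ratio of IL-33 KO to WT was 0.559 to 0.859.

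Gsdmd, the pore-forming target of Casp1, had 14.4, 12.5 and 13.3 CPM in IL-33 KO 1, 2 and 3, against 17.7, 17.2 and 19.0 CPM in WT 1, 2 and 3. The genotypes did not overlap, and the spread within each was small, with coefficients of variation of 7.23% among IL-33 KO libraries and 5.25% among WT libraries. The log2 fold change was -0.42 ± 0.13 (SE; unadjusted p 0.0117, adjusted p 0.465 in edgeR). Casp8, the initiator caspase of death receptors, which also restrains necroptosis in the mouse epidermis, had 33.9, 39.3 and 39.5 CPM in IL-33 KO 1, 2 and 3, against 52.1, 49.2 and 42.4 CPM in WT 1, 2 and 3. Its genotypes did not overlap either, although IL-33 KO 2 and 3 lay close to WT 3. The log2 fold change was -0.35 ± 0.13 (SE; unadjusted p 0.0243, adjusted p 0.507 in edgeR). Casp1, Gsdmd and Casp8 each had 0.1 in the exact permutation test of the 6 values, the smallest two-sided p that 3 against 3 libraries can give. Any gene without overlap between the genotypes gets this value, so it adds nothing to the lack of overlap.

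The summed level of 10 markers of macrophages and monocytes, which express Casp1 and Gsdmd, was 926 to 1080 CPM in IL-33 KO and 1100 to 1210 CPM in WT. The sum of WT 1 rests in large part on Cd14, which had 58.8, 145 and 191 CPM in IL-33 KO 1, 2 and 3, against 370, 72.1 and 83.4 CPM in WT 1, 2 and 3. The mean over the markers of log2(CPM + 0.5), relative to the 6 libraries, overlapped between the genotypes, at 0.06, -0.20 and -0.07 in IL-33 KO 1, 2 and 3, against 0.04, 0.04 and 0.13 in WT 1, 2 and 3. Of the 10 markers, 8 were lower in IL-33 KO, against 52.0% of tested genes. There were 0 past an adjusted p of 0.05 in edgeR or DESeq2 and 0 at an unadjusted p under 0.05. None of these markers was at 0 in all libraries. Whether the number of such cells has a part in the difference of Casp1, Gsdmd and Casp8 was not tested.

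Gsdmc, a gasdermin that in human cells is cut by caspase-8, had the log2 fold change of greatest size among the members. It had 94.0, 121 and 108 CPM in IL-33 KO 1, 2 and 3, against 214, 206 and 120 CPM in WT 1, 2 and 3. WT 1 and WT 2 stood apart from the other 4 libraries, and WT 3 was level with IL-33 KO 2. The mean was 107 ± 13.3 CPM in IL-33 KO skin and 180 ± 52.0 CPM in WT (SD, n = 3 each), a log2 fold change of -0.75 ± 0.22 (SE; unadjusted p 0.0104, adjusted p 0.454 in edgeR). With a WT library left out it was -0.60 without WT 1 (adjusted p 0.699), -0.64 without WT 2 (adjusted p 0.826) and -0.97 without WT 3 (adjusted p 0.0571), and over its 16 alternatives the adjusted p ranged from 0.0571 to 0.958. Its low-level copy Gsdmc2 had 2.82, 2.02 and 1.93 CPM in IL-33 KO 1, 2 and 3, against 3.78, 5.2 and 1.5 CPM in WT 1, 2 and 3, with WT 1 and 2 again highest.

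Gsdma, the main gasdermin of the epidermis, had 233, 210 and 172 CPM in IL-33 KO 1, 2 and 3, against 283, 297 and 160 CPM in WT 1, 2 and 3. The highest values were again those of WT 1 and WT 2, and WT 3 was the lowest of all 6 libraries, so the genotypes overlapped. The log2 fold change was -0.27 ± 0.24 (SE; adjusted p 0.741 in edgeR) with a 95% interval of -0.83 to 0.29. Gsdma2 had 2.82, 2.70 and 1.26 CPM in IL-33 KO 1, 2 and 3, against 2.22, 4.50 and 2.05 CPM in WT 1, 2 and 3. Gsdma3, the one member with a log2 fold change above 0 (0.17 ± 0.36, adjusted p 0.894), had 6.45, 5.99 and 3.29 CPM in IL-33 KO 1, 2 and 3, against 2.67, 6.11 and 5.17 CPM in WT 1, 2 and 3. Both copies rest on 26 to 153 counts per library, and their direction turned when a single library was left out: Gsdma2 stood at 0.09 without WT 2, and Gsdma3 at -0.10 without WT 1.

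The level of suprabasal keratinocyte markers also differed between libraries. The summed CPM of 10 such markers was 10600, 24800 and 22600 in IL-33 KO 1, 2 and 3, against 27800, 35600 and 18700 in WT 1, 2 and 3, so that WT 1 and WT 2 were highest as for Gsdma and Gsdmc. The lowest sum was that of IL-33 KO 1, as for Gsdmc, whereas Gsdma was lowest in WT 3. The sum of 6 basal keratinocyte markers was highest in WT 1 and WT 2 too, at 41400 and 39200 CPM. It was 26000 CPM in WT 3 and 21900 to 30900 CPM in IL-33 KO. All 10 suprabasal and all 6 basal markers were lower in IL-33 KO, against 52.0% of tested genes. In both lists 0 were past an adjusted p of 0.05 and 0 at an unadjusted p under 0.05 in edgeR, and 0 were past the adjusted threshold in DESeq2. None of these markers was at 0 in all libraries. Their part in the values of the epidermal gasdermins was not tested.

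Pycard, the adaptor, had 123, 150 and 174 CPM in IL-33 KO 1, 2 and 3, against 201, 228 and 147 CPM in WT 1, 2 and 3. WT 3 lay between the IL-33 KO libraries, and the log2 fold change was -0.36 ± 0.20 (SE; adjusted p 0.610 in edgeR).

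Nlrp3, the sensor, varied more between libraries of 1 genotype than any other member. It had 9.78, 24.9 and 27.8 CPM in IL-33 KO 1, 2 and 3, against 59.6, 9.43 and 17.8 CPM in WT 1, 2 and 3. WT 1 was highest and WT 2 lowest, so that both ends of the range were WT libraries. Of the 10 members, 4 were highest in WT 1 and 4 in WT 2, where 18.3% and 21.3% of all tested genes had their highest value. Its coefficient of variation was 46.5% among IL-33 KO libraries and 92.9% among WT libraries. The log2 fold change was -0.47 ± 0.65 (SE; adjusted p 0.834 in edgeR), and the 95% interval of the ratio, 0.257 to 2.03, leaves room for a large difference in either direction. Without WT 1 the sign turned, to a log2 fold change of 0.62 (adjusted p 0.791).

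Casp4 ordered the libraries much as Nlrp3 did. It had 11.1, 15.5 and 15 CPM in IL-33 KO 1, 2 and 3, against 25.0, 10 and 13.7 CPM in WT 1, 2 and 3, with WT 1 highest and WT 2 lowest. The log2 fold change was -0.23 ± 0.32 (SE; adjusted p 0.838 in edgeR) and turned to 0.22 without WT 1. Its neighbour Casp1 did not share this order, so the ratio of Casp1 to Casp4 FPKM ranged from 2.37 to 4.03 in IL-33 KO and from 2.33 in WT 1 to 6.58 in WT 2.

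The genes of a pair of cytokines whose release follows inflammasome activity, chosen here after their values were seen, were highest in WT 1 as well. Il1b, the best-known substrate of caspase-1, had 69.1, 187 and 275 CPM in IL-33 KO 1, 2 and 3, against 589, 96.0 and 138 CPM in WT 1, 2 and 3. Il1a, an alarmin of keratinocytes, had 24.2, 61.0 and 45.4 CPM in IL-33 KO 1, 2 and 3, against 107, 26.4 and 28.9 CPM in WT 1, 2 and 3. In edgeR the log2 fold change was -0.63 ± 0.71 for Il1b (SE; adjusted p 0.792) and -0.31 ± 0.56 for Il1a (SE; adjusted p 0.872). Il18, whose product caspase-1 also cuts, was instead highest in WT 2, at 69.8 CPM against 61.2 CPM in WT 1. For Nlrp3, Il1a and Il1b alike, WT 1 was the highest library and IL-33 KO 1, WT 2 and WT 3 were the 3 lowest. The summed level of 8 neutrophil markers was also highest in WT 1, at 138 CPM. It was 50.1 to 57.5 CPM in the other WT libraries and 53.3 to 89.2 CPM in IL-33 KO. Of the 6 markers tested, 5 were highest in WT 1, where 18.3% of all tested genes were highest. Camp was highest in IL-33 KO 3, as were the untested Mpo and Elane. The neutrophil precursor markers Mpo and Elane each had 0 counts in 4 of the 6 libraries and at most 9 in any, and the part of neutrophils in the Nlrp3 values was not tested.

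**Figure D3:**
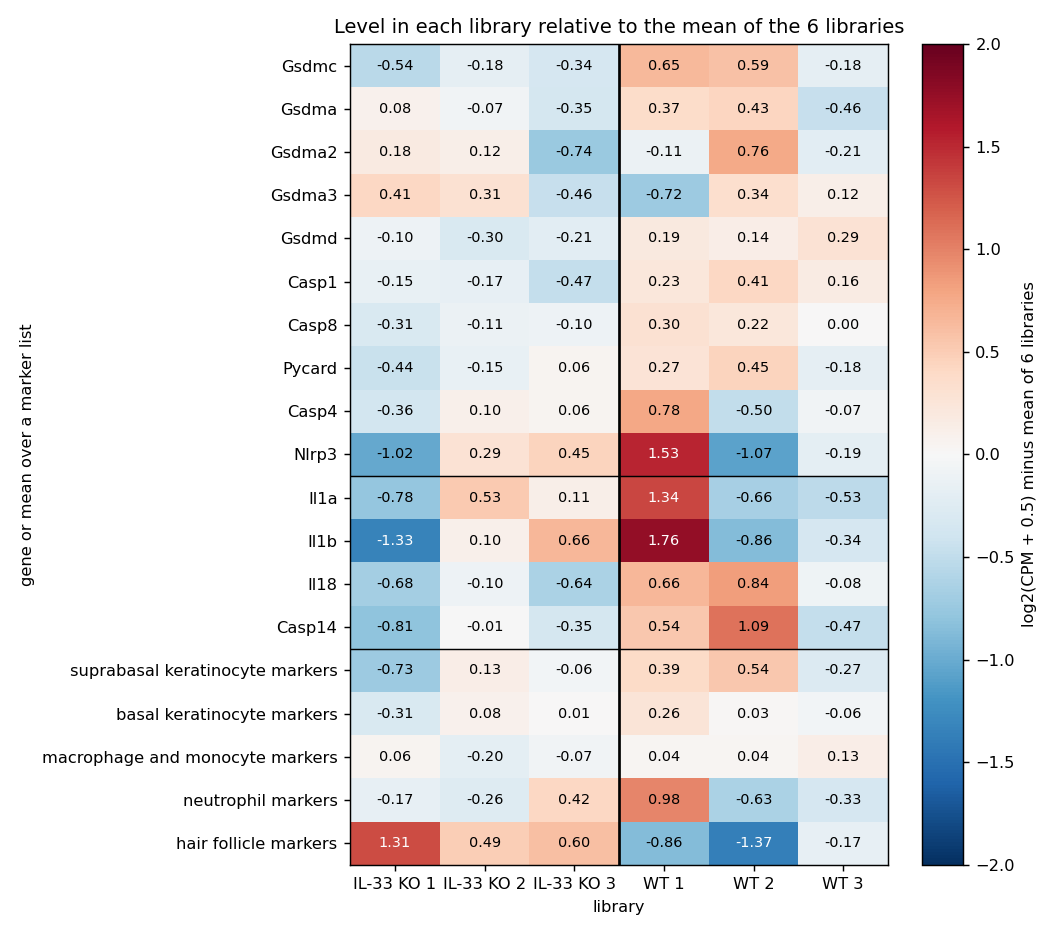
Level of each gene, and mean over each marker list, as log2(CPM + 0.5) relative to the mean of the 6 libraries, with libraries as columns, IL-33 KO left of WT. WT 1 reaches 1.53 for Nlrp3 and 1.76 for Il1b, whereas Gsdmc and Gsdma are high in both WT 1 and WT 2, as are the suprabasal markers (0.39 and 0.54).

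Beyond the 10 genes, 6 lists of the pathway with 63 symbols were examined, of which 62 matched and 57 were tested. No gene of these lists passed an adjusted p of 0.05 in edgeR, and 3 were lower and 0 higher at an unadjusted p under 0.05 (4.15% and 4.87% of all tested genes). In DESeq2, 1 gene of the lists passed the adjusted threshold, where 1.31% of all tested genes passed in either direction. The median log2 fold change over the 57 genes was -0.04.

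That gene was Il18, whose product is cut by caspase-1 and which keratinocytes express steadily. Il18 had 24, 36.1 and 24.6 CPM in IL-33 KO 1, 2 and 3, against 61.2, 69.8 and 36.5 CPM in WT 1, 2 and 3. IL-33 KO 2 nearly reached WT 3 and the genotypes did not overlap. The mean was 28.2 ± 6.86 CPM in IL-33 KO skin and 55.9 ± 17.3 CPM in WT (SD, n = 3 each), and the log2 fold change -0.98 ± 0.26 (SE; adjusted p 0.402 in edgeR and 0.0350 in DESeq2). Over its 16 alternatives the adjusted p ranged from 0.0350 to 0.958. Of the other 6 genes in the list of substrates and antagonists, 3 were lower and 3 higher, and Hmgb1, a nuclear alarmin, averaged 358 ± 30.5 CPM in IL-33 KO skin and 313 ± 29.8 CPM in WT skin.

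Among 7 other caspases, 4 were lower and 3 higher, with 0 past the adjusted threshold in edgeR or DESeq2 and 1 at an unadjusted p under 0.05. Casp14, the caspase of cornifying keratinocytes, which processes filaggrin, had 255, 444 and 350 CPM in IL-33 KO 1, 2 and 3, against 650, 951 and 322 CPM in WT 1, 2 and 3. As for Gsdmc, WT 1 and WT 2 were high and WT 3 was within the IL-33 KO range (log2 fold change -0.87 ± 0.37, unadjusted p 0.0478, adjusted p 0.547 in edgeR). Casp6, an executioner caspase, averaged 23.7 ± 3.47 CPM in IL-33 KO skin and 28.1 ± 1.55 CPM in WT skin (adjusted p 0.617).

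The partners of Casp8 in cell death were lower in 9 of 13 cases, against 52.0% of tested genes. Again 0 were past the adjusted threshold in either tool, and 1 was at an unadjusted p under 0.05 in edgeR. Ripk3, the kinase of necroptosis that Casp8 holds in check, had 17.1, 15.3 and 20.7 CPM in IL-33 KO 1, 2 and 3, against 28.7, 22.4 and 20.3 CPM in WT 1, 2 and 3. Its groups overlapped through IL-33 KO 3 and WT 3 (log2 fold change -0.42 ± 0.18, unadjusted p 0.0454, adjusted p 0.547 in edgeR). Tradd, a death receptor adaptor, averaged 25.6 ± 3.13 CPM in IL-33 KO skin and 30.2 ± 3.67 CPM in WT skin (adjusted p 0.643).

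**Figure D4:**
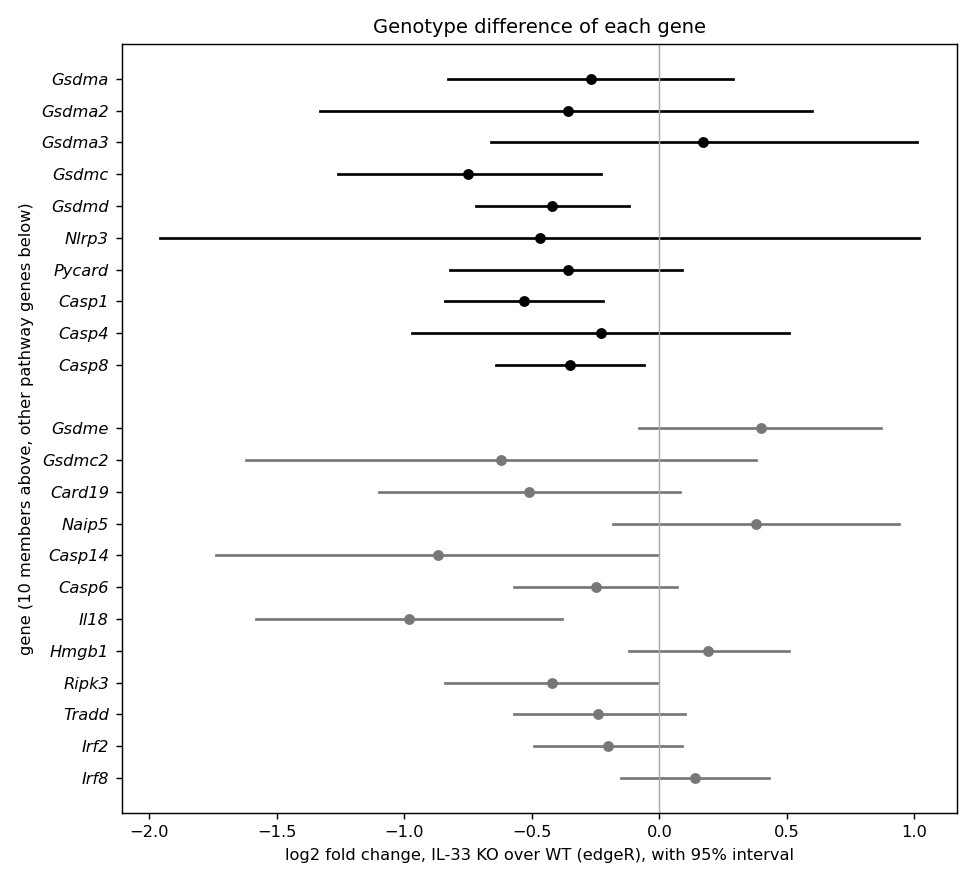
Log2 fold change of IL-33 KO over WT from edgeR for the 10 genes (black) and other pathway genes (grey), with points for the estimate and lines for its unadjusted 95% interval. The intervals of Gsdmc, Gsdmd, Casp1, Casp8, Il18, Casp14 and Ripk3 lie wholly below 0. Those of Casp14 and Ripk3 do so only just, each with an upper end of -0.01. None of these genes passes in edgeR after adjustment over all 15720 tested genes.

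Other sensors and regulators of inflammasomes were split, 9 lower and 7 higher of 16 tested, with 0 past the adjusted threshold in edgeR or DESeq2 and 0 at an unadjusted p under 0.05. Card19 averaged 16.2 ± 2.22 CPM in IL-33 KO skin and 23.1 ± 8.24 CPM in WT skin (adjusted p 0.592 in edgeR), and Naip5, a receptor for bacterial flagellin, was at 3.06 ± 0.187 CPM and 2.35 ± 0.460 CPM (adjusted p 0.655). Naip1 and Nlrp6 had too few counts to be tested. Of the other gasdermins and the membrane rupture gene Ninj1, 3 of 6 were tested and 0 passed in either tool or reached an unadjusted p under 0.05. Gsdme, which the files list under its older symbol Dfna5 and which caspase-3 cuts, had 6.16, 7.68 and 7.01 CPM in IL-33 KO 1, 2 and 3, against 4.18, 5.85 and 5.76 CPM in WT 1, 2 and 3. All its IL-33 KO values were above all WT values, as for 7.46% of tested genes (log2 fold change 0.40 ± 0.21, adjusted p 0.599 in edgeR). Of 11 tested genes of the lipopolysaccharide route, which leads to Casp4, and its inducers, 8 were higher and 3 lower. Of all tested genes, 52.0% were lower. The list had 0 past the adjusted threshold in either tool and 0 at an unadjusted p under 0.05. Irf2, a transcription factor that drives Gsdmd, averaged 19.4 ± 1.62 CPM in IL-33 KO skin and 22.3 ± 1.33 CPM in WT skin without overlap (adjusted p 0.647), and Irf8, a factor of myeloid cells, was at 18.9 ± 1.58 CPM and 17.1 ± 0.290 CPM (adjusted p 0.736).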

How the data were processed

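The authors deposited raw read counts per gene and FPKM values for 6 libraries. STAR, RSEM and the build mm10 were used, per the submitters' processing notes; versions, strand and handling of shared reads are not given in the sources used here. The deposited FPKM values scale the same counts by listed gene length and total count.

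Counts were tested with edgeR 4.0.16 in R 4.3.3 (filterByExpr, TMM, quasi-likelihood F test without robust option, two-sided, Benjamini-Hochberg over 15720 genes, threshold 0.05). CPM use TMM-scaled library sizes. The 95% intervals use the SE from the F statistic and are not adjusted. Of list symbols 1 was unmatched, Irgb10. The script was tested on simulated data. The members and lists were chosen with earlier results of these data known. Named are Il33, the members and, per pathway list, genes that pass or the 2 with the smallest p. Il1a and Il1b were added after their values were seen. Alternatives were other size factors, no filter, DESeq2 1.42.0, limma-voom (limma 3.58.1), limma on log2 FPKM, a replicate block and each library left out. No 2 libraries agreed within sampling noise (chi-square at least 31.7 per degree of freedom).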

Additional observations from a re-analysis of the deposited data

How the results depend on the processing

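No member passed an adjusted p of 0.05 under any of the 16 alternatives. The number of members at an unadjusted p under 0.05 was 4 in edgeR, 2 with total counts (Casp1 and Gsdmc, where 2.12% of all tested genes were lower at that p), and 3 to 6 with a library left out; the 6 came without WT 3 and include Gsdma and Pycard, in a fit where 8.16% of all tested genes were lower at that p, against 4.15% with all libraries. Casp8 also missed that p with total counts (0.0503). The number of all genes past the adjusted threshold, 3 in edgeR, was 5 with upper quartile and 5 with total-count scaling, 33 without a filter on low counts, 206 in DESeq2, 11 in limma-voom, 15 with log2(FPKM + 1), 11 with log2(FPKM + 0.1), 6 with log2(FPKM + 1) unfiltered, and 2 to 24 with a library left out. With a library left out, log2 fold changes ranged from -0.57 to 0.09 for Gsdma2, -0.10 to 0.42 for Gsdma3 (0.00 without IL-33 KO 1), -0.48 to 0.22 for Casp4 and -0.89 to 0.62 for Nlrp3; the other 6 members stayed below 0 in each. The samples share only a number: the deviations of same-numbered libraries from their group means correlated at -0.264, -0.117 and -0.378 across genes, and with the replicate block 2 genes and 3 members (at an unadjusted p under 0.05, where 2.05% of all tested genes were lower) were counted. Why counts moved with these settings was not tested. The members rest on 26 counts (Gsdma2) to 6808 counts (Gsdma) per library, so counting error weighs most on Gsdma2.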
